A study of Mus musculus with 4 samples.

Results

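The miR-129 family and its neighbour miR-670 were followed through small RNA libraries from mouse liver after chronic injury with thioacetamide (TAA). The 5 mature sequences are mmu-miR-129-5p, mmu-miR-129-1-3p, mmu-miR-129-2-3p, mmu-miR-670-3p and mmu-miR-670-5p, out of 1907 mature miRNAs listed in each library. They were selected on measured values, since earlier results of the same TAA and control libraries were known when they were grouped by shared hairpin and shared host transcript. Their differences between TAA-treated and control liver are therefore given as descriptions, with no test. All libraries came from C57BL/6 mice aged 15 weeks, made from total liver RNA. The TAA group (2 libraries) had been injected intraperitoneally with TAA at 200 mg/kg, 3 times a week for 10 weeks, and the treatment of the control group (2 libraries) is labelled control. The injection protocol is attached to every sample, so the group rests on that label. The sources used here do not name a vehicle. TAA is a hepatotoxin that produces fibrosis in rodents.

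A mature miRNA is cut from a hairpin, either from its 5′ arm (5p) or from its 3′ arm (3p), and finds its target mRNAs mainly through its seed, bases 2 to 8. miR-129 is known as a brain-enriched miRNA that dampens neuronal excitability, and the miR-129-2 gene is known for promoter methylation and silencing in several tumours, liver cancer among them. miR-129-5p is known to repress Sox4, a transcription factor of progenitor cells and tumours. Mouse has 2 miR-129 hairpins, which give an identical 5p but separately named 3p sequences, so that the 3p counts carry information on the locus and the 5p count does not.

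RefSeq mature sequences (GRCm38.p6) were found for 4 of the 5, and are shown because the seed decides which family each belongs to. The seed is in capitals, and each sequence runs 5′ to 3′.
mmu-miR-129-5p: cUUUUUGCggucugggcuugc
mmu-miR-129-2-3p: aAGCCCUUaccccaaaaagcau
mmu-miR-670-3p: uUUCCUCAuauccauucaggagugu
mmu-miR-670-5p: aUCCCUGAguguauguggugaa
The 4 seeds were all different. No other listed miRNA with a RefSeq sequence shared a seed with any of them, among the 1623 of 1907 names that matched. The bases of miR-670-5p one step further in, 3 to 9, equal the seed of miR-125a-5p, miR-125b-5p and miR-351-5p, which are members of the abundant miR-125 family.

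The hairpins show how far the loci can be told apart. Mature sequences listed by RefSeq are in capitals.
Mir129-1: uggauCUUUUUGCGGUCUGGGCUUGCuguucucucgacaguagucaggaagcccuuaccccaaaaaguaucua
Mir129-2: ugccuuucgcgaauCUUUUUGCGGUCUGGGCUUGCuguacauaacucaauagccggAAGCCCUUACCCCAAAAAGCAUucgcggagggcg
Mir670: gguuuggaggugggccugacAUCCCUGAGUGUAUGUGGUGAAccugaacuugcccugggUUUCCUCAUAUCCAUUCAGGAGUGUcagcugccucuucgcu
Mir129-1 lies on the plus strand of chromosome 6, at chr6:29022619-29022691 (GRCm38), and overlaps an exon of the long non-coding RNA gene Gm3294. Mir129-2 lies on the minus strand of chromosome 2, at chr2:94241364-94241453. Mir670 lies at chr2:94261300-94261399 on the same strand, 19.8 kb away. In a global alignment the miR-129 hairpins were identical at 64 of 94 columns, or 68.1%. Their longest shared run, 26 bases, holds all of miR-129-5p. A second run of 21 bases covers most of the 3′ arm. Over the 22 bases of miR-129-2-3p the Mir129-1 hairpin differs by 1 substitution, C20U, counted from the 5′ end of miR-129-2-3p. A read that stops before base 20 is thus the same at both loci, and the rule by which such reads were assigned is not stated.

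Both chromosome 2 hairpins lie inside Mir670hg, a long non-coding RNA gene of 104.3 kb at chr2:94160636-94264918. Mir670 begins 3.52 kb and Mir129-2 23.5 kb downstream of its annotated 5′ end. Of 7 annotated transcripts, 5 span Mir670 and 3 span Mir129-2. Mir129-2 lies in introns, while Mir670 overlaps an exon of 1 transcript by 22 bases.

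**Figure D1:**
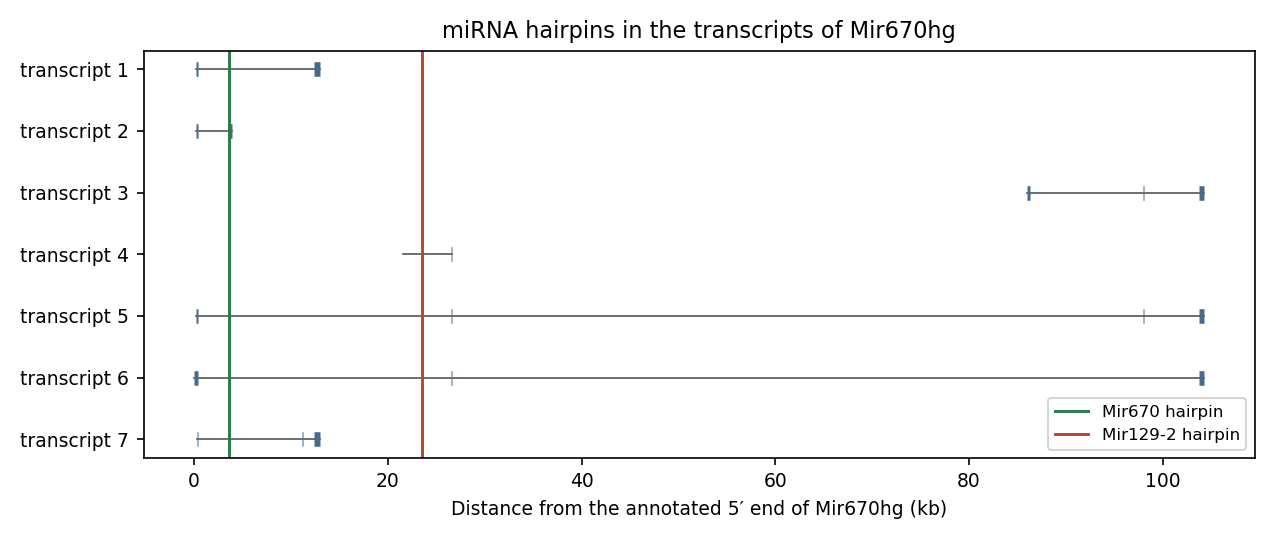
Map of the 7 annotated transcripts of Mir670hg (thick marks, exons; thin lines, introns), drawn against the distance in kb from the gene's 5′ end. Vertical lines mark the Mir670 hairpin at 3.52 kb and the Mir129-2 hairpin at 23.5 kb, and the transcripts that span either of them can be read from the lines they cross.

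The libraries held 43836911 and 48878003 miRNA counts in TAA-treated liver and 42609845 and 46224018 in control liver. Levels are CPM, that is counts scaled to a common library size with TMM factors (trimmed mean of M values). No length scaling was applied, since mature miRNAs are of similar length. All 5 sequences are rare in liver. miR-129-5p, the most abundant of them, ranked 341 and 345 among the 1039 and 1052 miRNAs detected in the TAA libraries, and 379 and 389 among the 1005 and 993 detected in the controls.

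The arm made by both hairpins, mmu-miR-129-5p, had 178 and 197 counts in TAA-treated liver, against 81 and 71 counts in control liver. Both TAA libraries were above both controls. In CPM it averaged 3.88 ± 0.054 in TAA-treated liver and 1.79 ± 0.18 in control liver (SD, n = 2 each). The edgeR log2 fold change was 1.12 (SE 0.22), which is 2.17-fold. Replicates lay close together: the ratio of TAA 1 to TAA 2 was 1.02, with an exact 95% interval of 0.83 to 1.26 for counting error, and that of control 1 to control 2 was 1.15 (0.83 to 1.61).

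The arm of the chromosome 6 hairpin, mmu-miR-129-1-3p, had 88 and 92 counts in TAA-treated liver, against 63 and 57 counts in control liver. The groups did not overlap, but they stood near each other, at 1.86 ± 0.10 CPM in TAA-treated liver and 1.41 ± 0.11 CPM in control liver (SD, n = 2 each). The log2 fold change was 0.40 (SE 0.27), a description from which neither a change nor its absence is read. Its value lay between 0.23 with upper-quartile factors and 0.52 with library size alone.

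The arm of the chromosome 2 hairpin, mmu-miR-129-2-3p, showed the widest gap among the miR-129 arms. It had 114 and 159 counts in TAA-treated liver, against 12 and 5 counts in control liver. The lowest TAA library thus held over 9 times the counts of the highest control. In CPM it averaged 2.80 ± 0.42 in TAA-treated liver and 0.20 ± 0.12 in control liver (SD, n = 2 each), a log2 fold change of 3.79 (SE 0.43), or 13.9-fold. The size of that change rests on few control counts: without control 1 the log2 fold change was 4.54, and without control 2 it was 3.29. The ratio of control 1 to control 2 was 2.42, with an exact 95% interval of 0.79 to 8.78, so the controls cannot be told apart by counting.

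The partner of Mir129-2 in the same host gene, mmu-miR-670-3p, had 14 and 12 counts in TAA-treated liver, against 1 and 0 counts in control liver. It was near the limit of detection in both controls, since a count of 0 in control 2 allows up to 0.0649 CPM (3 counts of its miRNA total, without the TMM factor). With 26 counts in the TAA group and 1 in the control group, the ratio of pooled CPM was 22.9, with an exact 95% interval of 3.76 to 937 for counting error. The interval leaves out the spread between libraries, so it is a description and not a test between the groups. A fitted fold change is not quoted, because it would depend on the offset added to so few counts.

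The other arm of that hairpin, mmu-miR-670-5p, had 0 counts in all 4 libraries. That allows up to 0.0684 and 0.0614 CPM in the TAA libraries and 0.0704 and 0.0649 CPM in the controls, again without the TMM factor. All counts assigned to the Mir670 hairpin therefore came from its 3p arm. The antisense hairpin Mir129b lies on the opposite strand within Mir129-2, and each of its arms overlaps an arm of Mir129-2 by 20 bases. Its rows, miR-129b-5p and miR-129b-3p, also held 0 counts in all 4 libraries, with the same limits. The strand setting of the counting is not stated, and without strand the antisense pair cannot be separated.

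**Figure D2:**
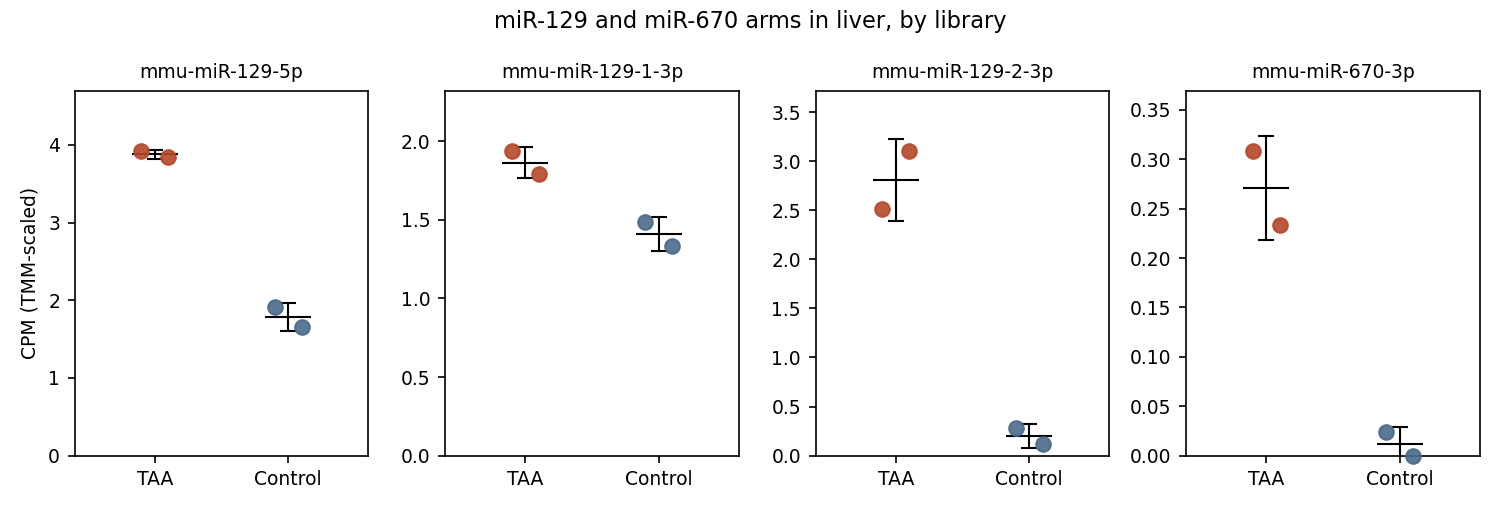
CPM (TMM-scaled) of the 4 arms with counts, in the 2 TAA libraries (red) and the 2 control libraries (blue); horizontal lines are means and bars 1 SD, and each panel has its own axis from 0. miR-129-2-3p stood at 2.51 and 3.10 CPM in TAA-treated liver and at 0.28 and 0.12 CPM in control liver, while miR-129-1-3p stood at 1.94 and 1.79 CPM in TAA-treated liver and at 1.49 and 1.33 CPM in control liver.

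Of the 5 sequences, 4 passed the filter on low counts, and miR-670-3p passed it through the TAA libraries alone. edgeR called 3 of the 4 higher, all but miR-129-1-3p, where it called 14.0% of all 644 miRNAs tested higher, and it called 0 lower, where 2.64% of all were lower. Since these sequences were chosen with that contrast known, nothing is read from their count. The calls among them depended on which library was left out, and nothing is read from that either. Across the 644 the log2 fold change had a median of -0.0042, and in that order, from the highest down, miR-129-2-3p stood at rank 27, miR-129-5p at 96 and miR-129-1-3p at 160. With 2 libraries against 2, an exact two-sided permutation test cannot give a p below 0.333. Nothing in the labels beyond the design text's word for biological replicates names separate animals, so the SDs measure the spread between these libraries. In whole liver, fewer cells of a type and less RNA per cell cannot be told apart.

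The balance between the 2 miR-129 loci differed between the groups. Of all 3p counts given to either locus, miR-129-2-3p made up 56.4% in TAA 1 (114 of 202, 95% Wilson interval 49.5% to 63.1%) and 63.3% in TAA 2 (159 of 251, 57.2% to 69.1%). In the controls it made up 16.0% in control 1 (12 of 75, 9.40% to 25.9%) and 8.06% in control 2 (5 of 62, 3.49% to 17.5%). The intervals of the TAA libraries did not reach those of the controls. They cover counting error within 1 library only, so this is a description and not a test between the groups. The share averaged 59.9 ± 4.89% in TAA-treated liver and 12.0 ± 5.61% in control liver (SD, n = 2 each), a difference of 47.9 percentage points that lay between 43.9 and 51.8 when 1 library was left out. The chromosome 6 arm led in control liver and the chromosome 2 arm in TAA-treated liver. The share is a ratio within 1 library and so is free of the scaling between libraries, but it shows unequal change and not that either arm was constant.

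**Figure D3:**
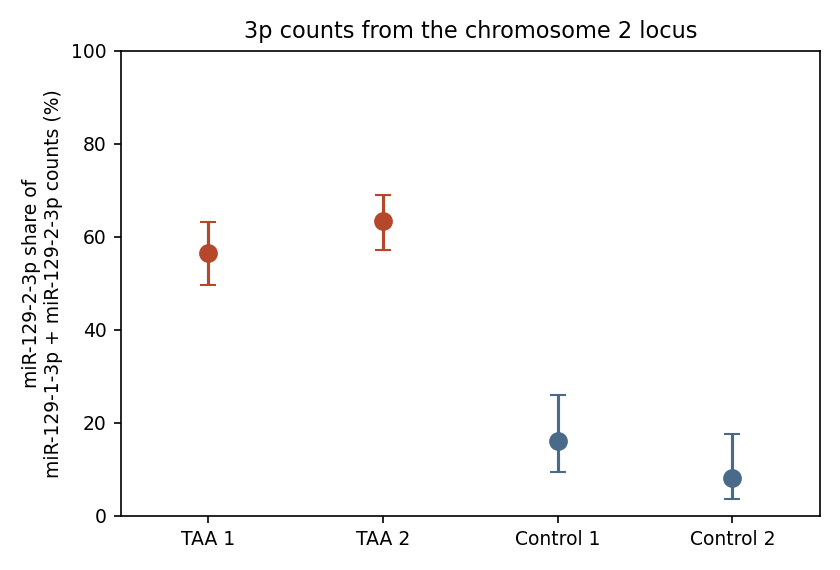
Share of miR-129-2-3p in the summed counts of miR-129-1-3p and miR-129-2-3p, in percent, for each library (points) with its 95% Wilson interval (bars, counting error). The TAA libraries stand at 56.4% and 63.3%, and the controls at 16.0% and 8.06%.

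The same share was computed for every other miRNA with an arm listed for loci 1 and 2 and a mean of at least 20 counts over both, 18 in all, a set put together after the miR-129 shares had been seen. Their differences between TAA-treated and control liver ran from -1.11 (miR-29b 5p) to 6.34 percentage points (miR-181a 3p), against 47.9 for miR-129. In 10 of the 18 the share was at most 5% or at least 95% in some library, 5 of them with 0 counts of the second locus throughout, so that it had little room to move in points. The other 8 stayed between 5% and 95% in every library, and their differences also ran from -1.11 to 6.34 points. miR-181a-2-3p, the largest of the rest, made up 79.7% and 78.2% in the TAA libraries and 73.8% and 71.5% in the controls. These values describe the libraries and were given no test.

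**Figure D4:**
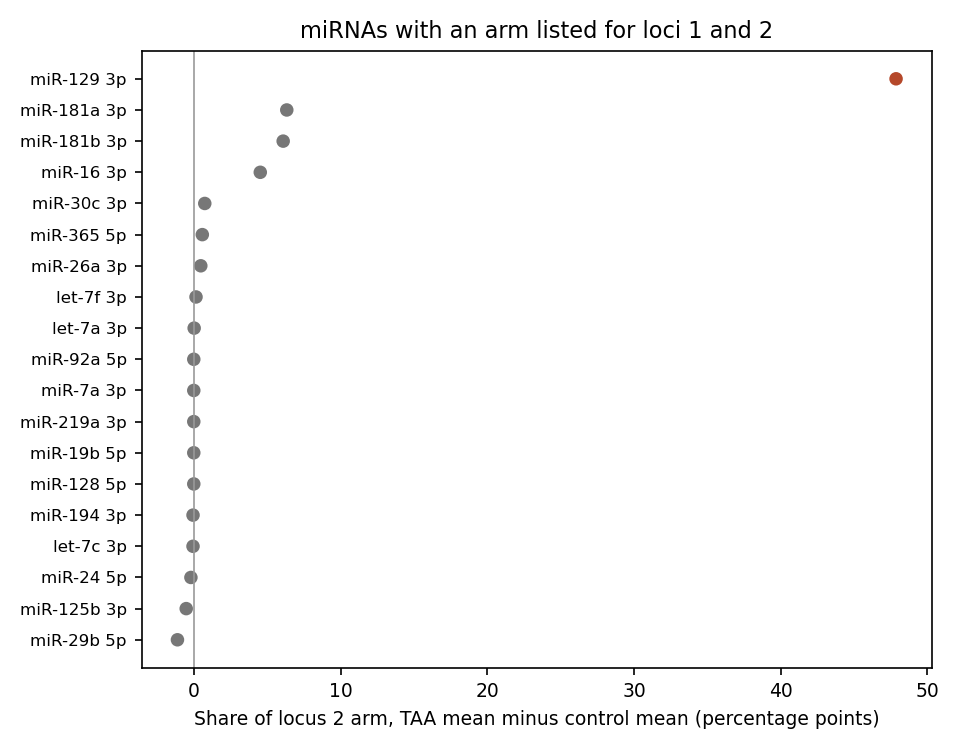
Difference in the share of the arm from locus 2, TAA mean minus control mean in percentage points, for 19 miRNAs with an arm listed for both loci. miR-129 3p (red) lies at 47.9 points and the other 18 (grey) lie between -1.11 and 6.34 points, 10 of them with shares near 0% or 100%.

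The 5p and 3p arms were close to balance. Summed over both loci, the 3p arms had 202 and 251 counts beside 178 and 197 of the 5p arm in TAA-treated liver, and 75 and 62 beside 81 and 71 in control liver. The 5p arm thus made up 46.8% (95% Wilson interval 41.9% to 51.9%) and 44.0% (39.4% to 48.6%) of miR-129 counts in the TAA libraries, against 51.9% (44.1% to 59.6%) and 53.4% (44.9% to 61.6%) in the controls. The interval of each TAA library overlapped those of both controls. As a log2 ratio of 5p to summed 3p counts (0.5 added to each) the group means were -0.27 ± 0.12 in TAA-treated liver and 0.15 ± 0.059 in control liver (SD, n = 2 each). Over all miR-129 arms, TAA-treated liver held 8.36 and 8.73 CPM, against 3.69 and 3.11 CPM in control liver. Of the difference in mean 3p level, 3.06 CPM, miR-129-2-3p accounted for 85.2%. The 5p arm differed by 2.09 CPM, miR-129-2-3p by 2.60 CPM and miR-129-1-3p by 0.45 CPM, all TAA minus control.

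The 3p arms of the hairpins within Mir670hg were compared as a ratio. miR-670-3p made up 10.9% of the summed counts of miR-670-3p and miR-129-2-3p in TAA 1 (14 of 128, 95% Wilson interval 6.63% to 17.5%) and 7.02% in TAA 2 (12 of 171, 4.06% to 11.9%). In control 1 it made up 7.69% (1 of 13, 1.37% to 33.3%), and in control 2 it was 0 of 5, an interval that reaches 43.4%. At these counts no difference in the ratio was detectable between the groups.

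The RefSeq window around the start of Mir670hg is shown because both chromosome 2 hairpins are annotated within that gene; the host transcript itself was not measured. It covers 250 bases before and 50 after the most upstream of 4 annotated starts (GRCm38.p6, chr2:94265054-94265353, minus strand), which lies upstream of the GENCODE 5′ end used above, with motif matches in capitals.
Mir670hg: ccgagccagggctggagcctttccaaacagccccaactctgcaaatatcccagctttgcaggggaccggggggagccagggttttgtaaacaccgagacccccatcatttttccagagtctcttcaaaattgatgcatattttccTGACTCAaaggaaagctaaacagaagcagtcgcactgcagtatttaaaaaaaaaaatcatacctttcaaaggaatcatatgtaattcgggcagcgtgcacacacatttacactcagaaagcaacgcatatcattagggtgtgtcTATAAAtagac
Several short motifs were searched on both strands, and the matches in capitals do not overlap. The AP-1 motif TGACTCA was found at -105 from the start, in all 4 windows of the gene, and in 5.17% of 27025 genes with 1 window each. The core promoter motif TATAAA was found 40 bases past the start, in all 4 windows, and in 14.2% of genes. The motif CCAAT was in 2 of the 4 windows and in 37.9% of genes. The Sp1 motif GGGCGG was in 0 of the 4 windows and in 35.9% of genes. The E-box CACGTG was in 0 of the 4 windows and in 7.24% of genes. The 4 windows belong to 1 gene and may hold the same site, so they are no measure beside the share of genes. A transcript that spans Mir129-2 starts 21.6 kb from the GENCODE 5′ end, so the window shown is not its start. A match to letters is a description and not a binding site.

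Other miRNAs near the loci were compared as the next measurement. On chromosome 6 no other hairpin lies within 1 Mb of Mir129-1, and 7 lie within 5 Mb. They give 14 mature rows, of which 11 could be tested. Their log2 fold changes had a median of -0.14. Beside 14.0% higher and 2.64% lower of all 644 miRNAs tested, 0 of them passed as higher and 1 as lower. That one, named after its value was seen, was miR-29b-3p, which targets collagen mRNAs, with 4969 and 5077 counts in TAA-treated liver and 6138 and 6784 in control liver. Its log2 fold change was -0.54 with an SE of 0.14 (edgeR, adjusted p = 0.0335), and it can come from more than 1 locus. On chromosome 2, 13 mature rows with a RefSeq sequence lie within 5 Mb. Of these, 5 had any counts and 1 was tested. The tested one, miR-1955-5p, had 48 and 73 counts in TAA-treated liver and 76 and 65 in control liver, so the groups overlap. It differed by -0.42 on the log2 scale with an SE of 0.31 (edgeR, adjusted p = 0.464). Its partner arm by name, miR-1955-3p, is not among the 13 but was also tested. It stood at 0.70 and 0.90 CPM in TAA-treated liver and 0.57 and 0.89 CPM in control liver. Its log2 fold change was 0.14 with an SE of 0.41 (edgeR, adjusted p = 0.897). The nearest hairpin apart from Mir670 and Mir129b, Mir7001, is 819.4 kb from Mir129-2 and had at most 3 counts in any library for either arm.

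The miRNAs whose levels followed the family most closely were found by Euclidean distance between log2 CPM profiles, centred on each miRNA's mean over the 4 libraries; with 2 groups, any miRNA of similar fold change lies near. Closest to miR-129-5p were miR-155-5p (distance 0.21), miR-34a-5p (0.30), miR-150-5p (0.34), miR-149-5p (0.38) and miR-7646-5p (0.41). miR-155-5p stood at 11.0 and 12.0 CPM in TAA-treated liver and 6.24 and 5.71 CPM in control liver. Closest to miR-129-2-3p were miR-493-5p (0.57), miR-377-5p (0.61), miR-154-5p (0.68), miR-299a-5p (0.71) and miR-668-3p (0.77), all 5 encoded on chromosome 12. The share of that chromosome among all miRNAs of similar fold change was not counted, so nothing is read from the shared chromosome. miR-154-5p stood at 11.3 and 7.56 CPM in TAA-treated liver and 0.83 and 0.47 CPM in control liver.

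Markers of the cell types that could carry these miRNAs were measured in the same libraries, as lists chosen with earlier results of these data known. The calls in every list stand beside 14.0% higher and 2.64% lower of all 644 miRNAs tested. The neuronal list summed to 101 and 108 CPM in TAA-treated liver and 99.6 and 94.7 CPM in control liver, and its median log2 fold change over 9 tested members was -0.015. Of those 9, 1 rose, miR-212-3p, by 0.75 on the log2 scale with an SE of 0.21 (edgeR, adjusted p = 0.0474), and 0 fell; without TAA 1, TAA 2 or control 1 that call was lost. Of the defining neuronal miRNAs, miR-124-3p had 0 and 5 counts in TAA-treated liver and 0 and 2 in control liver, and miR-9-5p had 24 and 54 against 31 and 48. miR-124-5p had 0 in every library. miR-124-3p was thus near the limit of detection in both groups.

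The leukocyte list summed to 1850 and 1628 CPM in TAA-treated liver and 874 and 1384 CPM in control liver, and 2 of 5 rose, miR-150-5p and miR-155-5p. Without either TAA library 1 of the 5 was called, miR-150-5p, and without control 2 all 5 were. The erythroid list summed to 530 and 1926 CPM in TAA-treated liver and 325 and 196 CPM in control liver, and all 4 rose. Those calls rest on TAA 2: without it 0 of the 4 were called. Between TAA 1 and TAA 2, miR-129-2-3p stood at 2.51 and 3.10 CPM, miR-129-5p at 3.92 and 3.84 CPM, miR-129-1-3p at 1.94 and 1.79 CPM and miR-670-3p at 0.31 and 0.23 CPM. Without TAA 2 the log2 fold change of miR-129-2-3p was 3.64. Of the epithelial list, which includes bile duct markers, 2 of 5 fell, miR-141-3p and miR-200c-3p, and 0 rose. Both calls depended on which library was left out, among the TAA libraries and among the controls. The sums were 360 and 333 CPM in TAA-treated liver and 387 and 428 CPM in control liver. Of the mesenchymal list 1 of 5 rose, miR-214-3p, and 0 fell. The log2 fold changes were 0.65 for miR-214-3p, 0.51 for miR-199a-3p, 0.26 for miR-199a-5p, -0.041 for miR-143-3p and -0.41 for miR-145a-5p. Which of them were called, and in which direction, depended on which library was left out. The sums were 31605 and 23348 CPM in TAA-treated liver and 27759 and 28077 CPM in control liver. The endocrine pair had 0 calls, or 1 lower, miR-375-3p, without control 2, and control 1 stood apart in it, at 114 CPM, beside 22.1 CPM in control 2 and 21.9 and 20.4 CPM in TAA-treated liver. The muscle list, at most 4.82 CPM in any library, and the hepatocyte list had 0 calls. Without control 1 each had 1 lower, miR-133a-3p of the muscle and miR-148a-3p of the hepatocyte list. The hepatocyte list summed to 309966 and 320181 CPM in TAA-treated liver and 341043 and 371401 CPM in control liver. Within it, miR-122-5p, the miRNA that marks hepatocytes, stood at 17376 and 17500 CPM in TAA-treated liver and 18285 and 21607 CPM in control liver. The part of these cell types in the miR-129 and miR-670 values was not tested.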

How the data were processed

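Each deposited file lists the raw count of every mature miRNA in 1 library. The submitters' processing notes name Bowtie, HTSeq and the build mm10. Versions, trimming, strand and the handling of multiply matching reads are not stated there. The summary row for multiply matching reads held 0 in every library, yet miR-129-5p, identical at both loci, had counts. Reads matching both loci were thus counted, by a rule that is not stated, which also limits the shares of the loci. The 5 summary rows without a miRNA name were left out; they hold 31.3% to 34.6% of reads per library. Counts were fitted with edgeR 4.0.16 in R 4.3.3 (filterByExpr, TMM, quasi-likelihood F test, Benjamini-Hochberg over 644 miRNAs, threshold 0.05, default prior count); the procedure was tested on simulated data. SE is the log2 fold change over the square root of F. Intervals and limits (95%; 3 counts for a 0, an upper limit alone and without the TMM factor) cover counting error only, since no molecular identifiers are stated. A chi-square of counts per degree of freedom was 207 between the TAA and 150.2 between the control libraries, far above sampling noise in each pair. The members and lists were chosen with earlier results of these data known. Named beside members were miRNAs sharing a seed, neighbouring hairpins, the 5 nearest profiles and markers from 8 lists. Alternatives were other scaling factors and filters, DESeq2 1.42.0, prior counts, a replicate block and leaving out each library; the calls among members and lists without each library were added after the data were seen. Sequences are from RefSeq, genes from GENCODE (both GRCm38, which is mm10).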

Additional observations from a re-analysis of the deposited data

How the results depend on the processing

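The log2 fold changes of miR-129-5p, miR-129-1-3p and miR-129-2-3p stayed above 0 under all alternatives run. Upper-quartile factors put the median of all miRNAs at -0.17; under them the values of miR-129-5p and miR-129-1-3p were 0.95 and 0.23, and with library size alone (median 0.12) 1.24 and 0.52. Leaving out 1 library gave 1.01 to 1.203 for miR-129-5p and 3.29 to 4.54 for miR-129-2-3p. The ratio of miR-670-3p ran from 11.3 (without control 2) to 26.3 (without TAA 2); without control 1 no ratio could be formed. The median of the neuronal list turned to 0.11 with library size alone, to 0.0045 with a mean CPM of at least 1, and ran from -0.22 (without TAA 1) to 0.11 (without control 2) when 1 library was left out. The number of miRNAs called higher lay between 47 and 98, and called lower between 2 and 33, when 1 library was left out. The lower calls numbered 32 with upper-quartile factors, 32 with no filter and 11 with a mean CPM of at least 1. The replicate block gave 92 higher and 18 lower calls. Same-numbered libraries did not deviate together (r = -0.0051 over 644 miRNAs), so no pairing by number was seen. With 2 libraries per group this cannot exclude a pairing. Causes of these shifts were not tested. Counts of 0 to 14 limit what can be said of miR-670.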
